A study of Homo sapiens with 16 samples.

Results

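Ribosome footprints of heat-shocked senescent WI-38 cells were compared with those of heat-shocked young WI-38 cells. WI-38 is a human lung fibroblast line that stops dividing after many passages. All 19201 genes of the footprint table entered, and no gene was chosen by its values. The comparison used 4 of the 16 libraries of the study: 2 from senescent cells at passage 36 and 2 from young cells at passage 24, each harvested after 2 h at 44 °C. For reference there were 2 footprint libraries each from senescent and young cells without heat shock (here called resting), and 2 RNA-seq libraries for each of the same 4 conditions. All cells, the resting ones included, had been starved of serum for 24 h and returned to complete medium for 24 h. Both states are passages of 1 line, and the labels do not say whether replicates came from separate cultures, so p-values measure only the spread between these libraries, which may be technical.

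Ribosome profiling sequences the short stretches of mRNA that ribosomes protect from a nuclease, so a gene's footprint count depends on how much of its mRNA is present and on how many ribosomes sit on it. Heat shock unfolds proteins, activates heat shock factor 1, fills the cell with chaperone mRNA and slows the translation of many other mRNAs. Replicative senescence is a lasting arrest held by the p53 and p16 pathways, in which fibroblasts enlarge, secrete cytokines and proteases and remodel their matrix. The series title speaks of a collapse of proteostasis, the balance of protein synthesis, folding and degradation, in senescence, and the comparison asks which mRNAs carry more or fewer footprints in senescent than in young cells while both are under heat.

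The heat-shocked footprint libraries held 8126227 and 5489025 counts in senescent cells and 5356955 and 5566710 in young cells. Levels are given as CPM, the count scaled to a common library size by the TMM method, and every difference is senescent minus young on the log2 scale with its approximate standard error. The libraries did not separate cleanly by state: across the 11288 genes tested, log2 CPM of senescent replicate 1 correlated with young replicate 1 (0.965) more closely than with senescent replicate 2 (0.952), and the lowest correlation was between senescent replicate 2 and young replicate 1 (0.919). All 12 fibroblast markers had counts in each of the 4 libraries, with a summed level of 9043 to 9574 TPM (a level that allows for gene length) in senescent and 9745 to 9853 TPM in young cells. The 10 epithelial markers summed to 126 and 139 TPM in senescent and 87.5 and 88.6 TPM in young libraries, 4 or 5 of them at 0. The 7 endothelial markers listed summed to 20.9 and 23.2 TPM in senescent and 12.7 and 11.8 TPM in young libraries, with 4 or 5 at 0, and the 9 leukocyte markers to 71.5 and 109 TPM and to 86.0 and 170 TPM, with 4 to 6 at 0. KRT19, an epithelial keratin (0.98 ± 0.21), and TEK, an endothelial receptor (1.01 ± 0.23), were called higher by DESeq2 and not by edgeR. DESeq2 also called 3 of the 12 fibroblast markers lower. These were COL1A1, COL1A2 and COL3A1, which return below among the fibrillar collagens. The part of these markers in the results was not tested, and in such bulk libraries fewer cells of a type and less RNA per cell cannot be told apart.

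With 2 libraries per group, 1 of the 11288 genes tested (0.00886%) passed an adjusted p of 0.05 (edgeR quasi-likelihood F test, Benjamini-Hochberg), and it was ELN, lower in senescent cells. An unadjusted p under 0.05 was reached by 1463 genes (13%), 652 higher (5.78%) and 811 lower (7.18%) in senescent cells. Both senescent libraries lay above both young ones for 2306 genes (20.4%) and below both for 2269 (20.1%). Differences were above 0 for 50.3% and below 0 for 49.7% of genes, with a median of 0.0029, and 317 genes were more than 2-fold higher and 691 more than 2-fold lower. The same contrast at rest called 0 genes, with 885 at an unadjusted p under 0.05 (7.84%; 4.43% higher and 3.41% lower), while DESeq2 called 111. The size of the call set depended on the analysis: DESeq2 called 128 genes (1.28% of those it tested, 47 higher and 81 lower), and without senescent replicate 1, where the remaining senescent library is assumed to vary like the other groups, 494 were called (84 higher, 410 lower), whereas 0 were called without senescent replicate 2. Without young replicate 1 the count was 1, without young replicate 2 it was 3, and without any 1 of the 4 resting libraries it was 0, with 894 to 1617 genes at an unadjusted p under 0.05. Below, a gene is called where edgeR's adjusted p passed, and calls by DESeq2 are named as such. Differences at heat shock and at rest had a Pearson correlation of 0.34 across genes, which are not independent replicates.

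**Figure D1:**
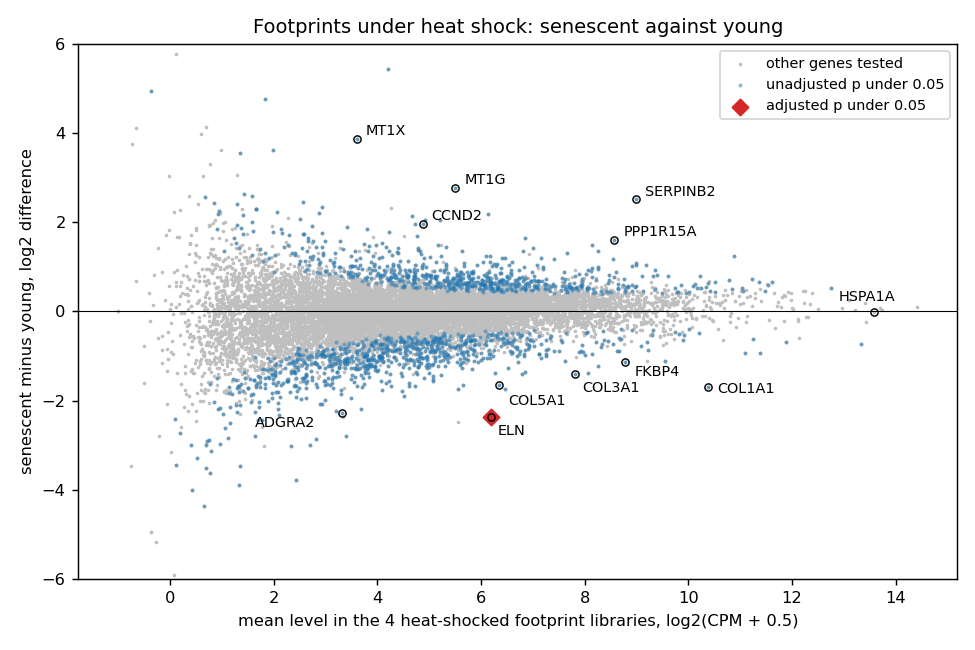
Difference in footprints under heat shock (senescent minus young, log2) against the mean level of each gene in the 4 heat-shocked libraries (log2(CPM + 0.5)). Each point is a gene, blue points have an unadjusted p under 0.05, the red diamond is ELN, which passed the adjusted threshold, and 7 genes lie outside the axis; COL1A1 stands among the most abundant genes with a difference of -1.70, while HSPA1A lies at -0.0090.

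Matrix genes led the lower side: of the 10 genes with the smallest p there and at least 10 CPM, 5 encode elastin or collagens, and 1 of the 5 passed the test. ELN encodes tropoelastin, the soluble precursor of elastic fibres. Its footprints were 22.9 and 24.2 CPM in the senescent libraries and 139 and 103 CPM in the young libraries. The 2 senescent values nearly coincided and lay far below both young values, a difference of -2.36 ± 0.24 (edgeR adjusted p = 0.049). Without heat ELN also stood lower in senescent cells, at 32.1 and 24.8 CPM against 98.1 and 91.4 CPM in young cells (-1.74 ± 0.23), and its RNA under heat shock differed by -2.07 ± 0.31 (edgeR adjusted p = 0.13). In RNA under heat shock 0 of 13177 genes were called by edgeR, while 1520 had an unadjusted p under 0.05 (11.5%; 6.31% higher and 5.23% lower) and DESeq2 called 245. Across genes this RNA difference had a Pearson correlation of 0.44 with the GC content of the transcript, against -0.031 for the footprint difference. The part of this GC trend in the gaps between RNA and footprints given below was not tested. The adjusted p of ELN was close to the threshold: it passed in 8 of 18 alternative analyses, with adjusted p from 7.3e-13 to 0.40 and a difference of -2.58 to -2.17 throughout. The adjusted p was 0.40 without senescent heat-shocked replicate 2, 0.11 without young heat-shocked replicate 1, 0.085 or 0.091 without 1 of the resting senescent libraries and 0.16 without either resting young library.

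Fibrillar collagens, the rope-like collagens that bear tension in connective tissue, stood lower in senescent cells under heat, and most of them showed little gap at rest. COL1A1, the major chain of type I collagen, had 707 and 547 CPM in heat-shocked senescent libraries and 1794 and 2289 CPM in heat-shocked young libraries. In resting cells the same gene stood at 8134 and 9671 CPM in senescent and 8781 and 8503 CPM in young libraries, so the resting groups overlapped and the heat-shocked groups did not. Its difference was -1.70 ± 0.22 under heat (edgeR adjusted p = 0.061, not called) against 0.043 ± 0.21 at rest. COL1A1 RNA under heat shock differed by 0.060 ± 0.50, and footprints over RNA, the difference in footprints minus the difference in RNA, by -1.76 ± 0.59 (edgeR adjusted p = 0.73). The RNA estimate lay near 0 with a wide error, and the gap between the assays was not called.

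COL3A1, the chain of type III collagen, gave 126 and 119.7 CPM against 314 and 336 CPM, with little spread in either state. Its difference was -1.40 ± 0.17 under heat (edgeR adjusted p = 0.061) and 0.095 ± 0.16 at rest, and its RNA differed by -0.62 ± 0.40. COL1A2, the partner chain of COL1A1, gave 2090.1 and 1587 CPM against 3770.5 and 3267 CPM (-0.94 ± 0.20). COL5A1, which starts the assembly of type I fibrils, gave 50.9 and 27.0 CPM against 124 and 122 CPM (-1.65 ± 0.28, with RNA at 0.12 ± 0.37). In each of these genes both senescent libraries lay below both young ones. COL5A3, a minor type V chain, was scarce at 0.813 and 0.425 CPM against 7.08 and 11.3 CPM, and it was also low at rest (-2.87 ± 0.47).

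Of the 7 fibrillar collagens tested, 5 were lower in senescent cells under heat, all 5 without overlap of the groups (20.1% of all genes tested were lower without overlap). All 5 had an unadjusted p under 0.05 (7.18% of all genes did in this direction). Of the 7, edgeR called 0 and DESeq2 called these 5 (1.28% of all genes it tested were called in either direction). The list's 2 other members, COL5A2 (0.48 ± 0.25) and COL11A1 (0.071 ± 0.61), had overlapping groups. The list's median was -1.40 under heat and 0.19 at rest, beside 0.0029 and -0.0075 for all genes, and its median RNA difference was -0.17. The heat-shock difference minus the rest difference was below 0 for all 7, and 4 of them had an unadjusted p under 0.05 in that test (3.06% of all genes did in this direction). That interaction test called 0 of 11288 genes in edgeR, with 554 at an unadjusted p under 0.05 (4.91%), whereas DESeq2 called 10, so by edgeR a difference between heat and rest was not established for any single gene. For COL1A1 the interaction was -1.75 ± 0.30 (edgeR adjusted p = 0.83) and for COL3A1 -1.50 ± 0.23 (edgeR adjusted p = 0.83).

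Among the 12 other collagens tested, 10 were below 0, 8 of them without overlap (20.1% of all genes), and the median was -0.66. Of the 12, edgeR called 0 and DESeq2 called COL15A1 and COL18A1 (1.28% of all genes it tested were called in either direction). COL15A1, a basement membrane zone collagen, gave 17.7 and 16.6 CPM against 44.8 and 53.3 CPM (-1.51 ± 0.22, edgeR adjusted p = 0.12). Unlike COL1A1, it had similar gaps at rest (-1.18 ± 0.22) and in RNA (-1.48 ± 0.36). The basement membrane chains COL4A1 and COL4A2 differed by -0.68 ± 0.18 and -0.86 ± 0.22 under heat and by 0.16 ± 0.18 and 0.22 ± 0.22 at rest. COL18A1, the source of endostatin, gave 36.9 and 24.8 CPM against 62.5 and 74.2 CPM, with -1.14 ± 0.25 in footprints and 0.38 ± 0.31 in RNA. COL6A3, a chain of the beaded type VI filaments, lay on the other side at 0.45 ± 0.25, with 4270.0 and 6947 CPM in senescent and 4556 and 3661 CPM in young libraries.

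Matrix genes outside the collagens were mixed. Over the whole matrix list, 43 of 70 members tested were below 0. Of these 70, 31 were lower without overlap (20.1% of all genes) and 5 higher without overlap (20.4% of all genes). ELN alone was called by edgeR, whereas DESeq2 called 11 members, 10 lower and LOX higher (1.28% of all genes it tested were called in either direction). SERPINH1, the heat-inducible chaperone HSP47 that folds procollagen in the endoplasmic reticulum, gave 2069.8 and 1741 CPM against 2939 and 2905 CPM (-0.62 ± 0.17). FBLN2, a fibulin, and THBS2, a thrombospondin, differed by -1.24 ± 0.26 and -1.02 ± 0.23, with rest differences of -0.85 ± 0.25 and -0.96 ± 0.23. FN1, fibronectin, overlapped between the states, at 15747 and 11882 CPM against 14246 and 12881 CPM (0.027 ± 0.23). LOX, the enzyme that crosslinks collagen and elastin, lay on the higher side, with 694 and 914 CPM against 425 and 504 CPM (0.79 ± 0.19, edgeR adjusted p = 0.23), and the glycoprotein TNC differed by 0.50 ± 0.21. The metalloproteinases and their inhibitors had a median of 0.27 over 11 members, which was -0.21 without senescent replicate 2, 0.56 without senescent replicate 1, 0.020 without young replicate 1 and 0.15 without young replicate 2.

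**Figure D2:**
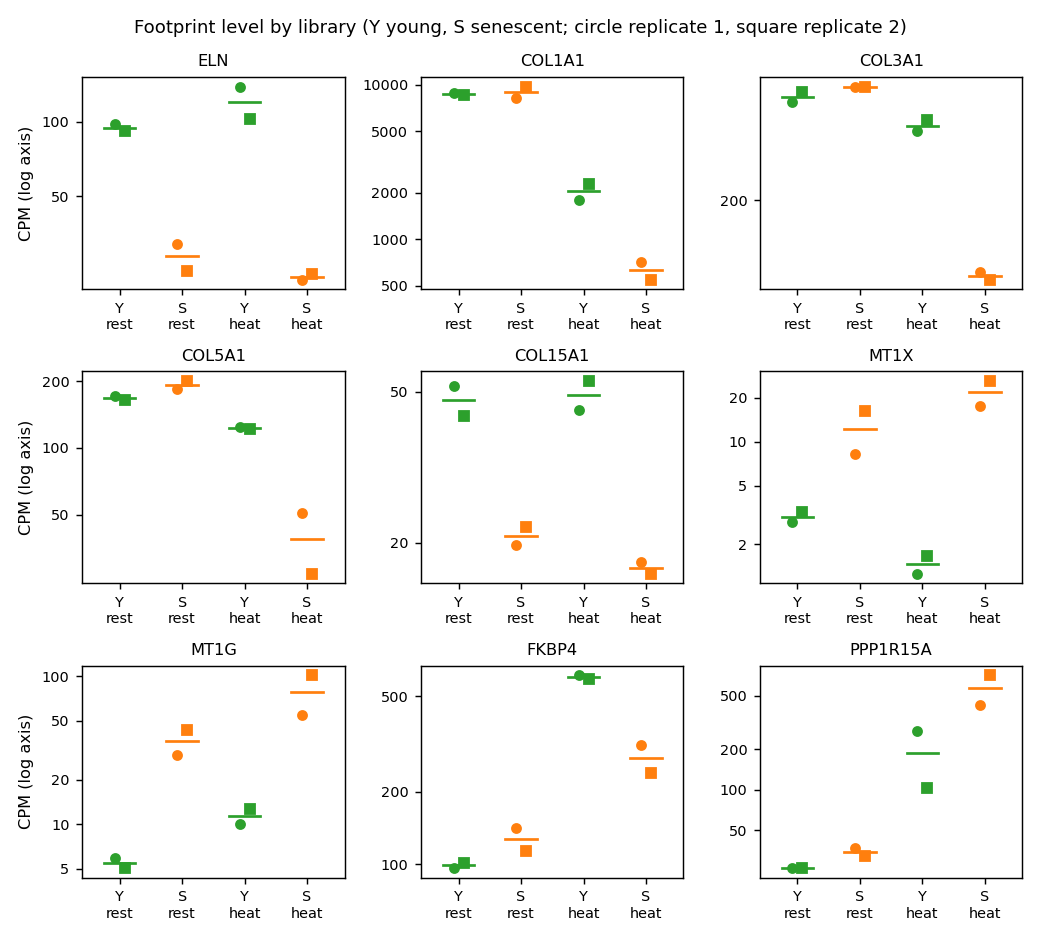
Footprint level in CPM on log axes in each of the 8 footprint libraries for 9 genes named in the text. Circles are replicate 1, squares replicate 2 and bars the group mean; the groups of COL1A1, COL3A1 and COL5A1 lie apart under heat and close together at rest, those of ELN, COL15A1, MT1X and MT1G lie apart in both conditions, and those of FKBP4 and PPP1R15A lie farther apart under heat than at rest.

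On the higher side the metallothioneins led. Metallothioneins are small cysteine-rich proteins that bind zinc and copper, and their genes are switched on by the zinc sensor MTF1 through metal response elements and respond to heavy metals and oxidants. MT1X gave 17.6 and 26.1 CPM in senescent and 1.25 and 1.67 CPM in young heat-shocked libraries. Both senescent values lay more than 10 CPM above the young ones (3.88 ± 0.48, edgeR adjusted p = 0.061, not called). At rest MT1X stood at 8.33 and 16.2 CPM against 2.85 and 3.30 CPM (2.00 ± 0.42), and its RNA under heat differed by 1.11 ± 0.28. MT1G gave 54.5 and 102 CPM against 10.00 and 12.8 CPM under heat (2.77 ± 0.36, edgeR adjusted p = 0.061), nearly the same difference as at rest (2.74 ± 0.36). MT2A, the member expressed in nearly all tissues, gave 1487 and 3825 CPM against 867 and 1393 CPM (1.23 ± 0.42), which was 0.36 without senescent replicate 2. Of the 9 genes of metallothioneins, the zinc exporter SLC30A1 and MTF1 itself, 7 were above 0, with a median of 1.21, 1.07 at rest, and the heat median was 0.36 without senescent replicate 2 and 0.64 without young replicate 1. DESeq2 called MT1X and MT1G (1.28% of all genes it tested were called in either direction). SLC30A1 (-0.49 ± 0.42) and MTF1 (-0.18 ± 0.32) were the 2 below. Metallothionein genes are near copies of each other, and the sources used here do not say how reads shared between them were split, so the levels of single members are uncertain.

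The promoters of MT2A and MT1X are shown because both genes stood higher in senescent cells and metallothionein promoters are known for metal response elements. Both are RefSeq sequence of GRCh38.p14, 5′ to 3′ on the plus strand, from 250 bases before to 50 bases after the gene's start, and the files themselves use another build. Capitals mark matches to TGCACNC or TGCGCNC, the core of the metal response element, on either strand, and overlapping matches would merge into 1 run of capitals. MT2A lies at chr16:56608334-56608633 with 8 matches and MT1X at chr16:56682220-56682519 with 4.
MT2A: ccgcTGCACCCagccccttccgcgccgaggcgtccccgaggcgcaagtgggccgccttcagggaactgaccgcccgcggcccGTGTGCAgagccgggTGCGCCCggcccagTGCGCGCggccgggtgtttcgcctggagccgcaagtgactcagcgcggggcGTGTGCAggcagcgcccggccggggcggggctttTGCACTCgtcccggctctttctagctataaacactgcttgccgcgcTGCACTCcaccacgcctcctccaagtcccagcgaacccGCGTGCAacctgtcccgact
MT1X: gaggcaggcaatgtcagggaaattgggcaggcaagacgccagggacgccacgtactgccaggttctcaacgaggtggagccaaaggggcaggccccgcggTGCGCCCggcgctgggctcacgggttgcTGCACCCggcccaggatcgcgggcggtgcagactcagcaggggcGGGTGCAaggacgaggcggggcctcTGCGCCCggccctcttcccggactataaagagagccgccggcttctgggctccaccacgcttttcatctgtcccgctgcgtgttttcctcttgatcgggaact
Of 35116 RefSeq promoters of this length, 29.6% held at least 1 such match and 0.601% held 4 or more. A match is a run of letters and was not tested as a site. Of the 7 metallothioneins of the list, 2 had a promoter in the RefSeq table.

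Other leading genes had varied roles; edgeR called none of the following and DESeq2 called each of them. SERPINB2, the plasminogen activator inhibitor PAI-2, gave 466 and 1258 CPM in senescent and 173 and 129 CPM in young libraries (2.51 ± 0.45, edgeR adjusted p = 0.17). Its senescent replicates differed by more than 2-fold, and both exceeded the young values. PDCD1LG2, which encodes the immune checkpoint ligand PD-L2, gave 92.4 and 97.7 CPM against 33.5 and 46.8 CPM (1.24 ± 0.22). HMGA2, a chromatin protein found in senescence-associated heterochromatin, gave 194 and 202 CPM against 79.1 and 94.2 CPM (1.19 ± 0.22, 1.08 ± 0.21 at rest). VAMP5, TRPV2 and PNP, a vesicle protein, a cation channel and purine nucleoside phosphorylase, differed by 1.11 ± 0.19, 1.20 ± 0.22 and 1.35 ± 0.24. MAST4, a kinase, differed by 1.41 ± 0.25 in footprints and -0.24 ± 0.35 in RNA. PCDHGA4 (2.15 ± 0.33) shares its last exons with the other genes of the gamma protocadherin cluster, so its counts are uncertain.

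On the lower side, the adhesion receptors ADGRA2 and ADGRL2 gave 2.71 and 3.82 CPM against 14.6 and 16.5 CPM (-2.27 ± 0.30, edgeR adjusted p = 0.061) and 3.52 and 1.27 CPM against 18.1 and 16.8 CPM (-2.79 ± 0.45). ADGRL2 had a like gap at rest (-2.48 ± 0.45), while ADGRA2 differed by -0.57 ± 0.25 at rest and by -0.14 ± 0.39 in RNA under heat. SKP2, the ubiquitin ligase subunit that marks p27 for destruction, gave 13.8 and 15.5 CPM against 37.7 and 39.4 CPM (-1.40 ± 0.23). The deubiquitinase USP1 gave 9.62 and 8.28 CPM against 23.1 and 21.7 CPM (-1.31 ± 0.23). Both senescent libraries were below both young ones in each of these 4 genes, which DESeq2 called and edgeR did not. MAP1LC3B2 had 0 counts in both senescent libraries and 19.8 and 3.89 CPM in the young ones, at least 22.7-fold lower in senescent cells by the group means with 3 counts per library as the floor. It is a near copy of MAP1LC3B, so its counts are uncertain.

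Cytosolic chaperones bind unfolded proteins, and heat shock raises many of them. Of 48 members 31 were below 0 in heat-shocked senescent cells, 10 were lower without overlap (20.1% of all genes) and 5 higher without overlap (20.4% of all genes). At an unadjusted p under 0.05 there were 7 lower and 0 higher members (7.18% and 5.78% of all genes). Of the 48, edgeR called 0 and DESeq2 called FKBP4 and BAG3 (1.28% of all genes it tested were called in either direction). The median was -0.11, and it was -0.18 and -0.17 without senescent replicates 1 and 2 and -0.19 and -0.0745 without young replicates 1 and 2. Their RNA differences had a median of -0.39, beside -0.043 for all genes, and footprints over RNA were above 0 for 36 of 48 members, with a median of 0.28 beside 0.026. Footprints over RNA called 0 of 11166 genes in edgeR, with 732 at an unadjusted p under 0.05 (6.56%; 2.2% higher and 4.35% lower), whereas DESeq2 called 22. RNA differences followed GC content across genes and footprint differences hardly did, and the part of this in the chaperone values was not tested.

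The inducible HSP70 genes are the classic heat shock genes. HSPA1A gave 10137 and 14449 CPM in senescent and 13156 and 11584 CPM in young libraries, so the groups overlapped (-0.0090 ± 0.39). HSPA1B, which is nearly identical to HSPA1A and shares reads with it, gave 9475 and 17833 CPM against 12005 and 13948 CPM (0.073 ± 1.12). HSPA6 gave 2606 and 4370.4 CPM against 2313 and 4148 CPM, where replicate 2 exceeded replicate 1 in both states (0.11 ± 0.43). The standard errors leave room for a difference in either direction in all 3 genes. HSPA1A RNA differed by -0.67 ± 0.26 (edgeR adjusted p = 0.40).

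Of the constitutive and co-chaperone genes, HSPA8, the abundant housekeeping HSP70, differed by 0.19 ± 0.23, and HSPH1, an HSP110 that helps HSP70 release its client, by -0.37 ± 0.23. HSP90AA1, the inducible HSP90, gave 12342 and 7920.1 CPM against 14269 and 9599.6 CPM (-0.24 ± 0.31), and the small heat shock protein HSPB1 differed by -0.21 ± 0.36. The member with the smallest p was FKBP4, a proline isomerase that works with HSP90 on steroid receptors, with 313 and 239 CPM in senescent and 612 and 593 CPM in young libraries. Both senescent libraries lay above the resting level, which was 141 and 113 CPM in senescent and 96.4 and 102 CPM in young cells, and below the young heat-shocked level. The difference was -1.13 ± 0.20 under heat (edgeR adjusted p = 0.17), 0.36 ± 0.20 at rest and -1.31 ± 0.19 in RNA under heat. BAG3, which hands HSP70 clients to autophagy, gave 1469 and 1546 CPM against 2201 and 3566 CPM (-0.94 ± 0.25, RNA -0.93 ± 0.20). DNAJB1, the inducible HSP40, gave 2454 and 3314 CPM against 3305 and 6029 CPM (-0.69 ± 0.28), with overlap since senescent replicate 2 exceeded young replicate 1. The HSP110 family member HSPA4L differed by -0.97 ± 0.30 and DNAJA4, a J-domain protein, by -1.63 ± 0.51.

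**Figure D3:**
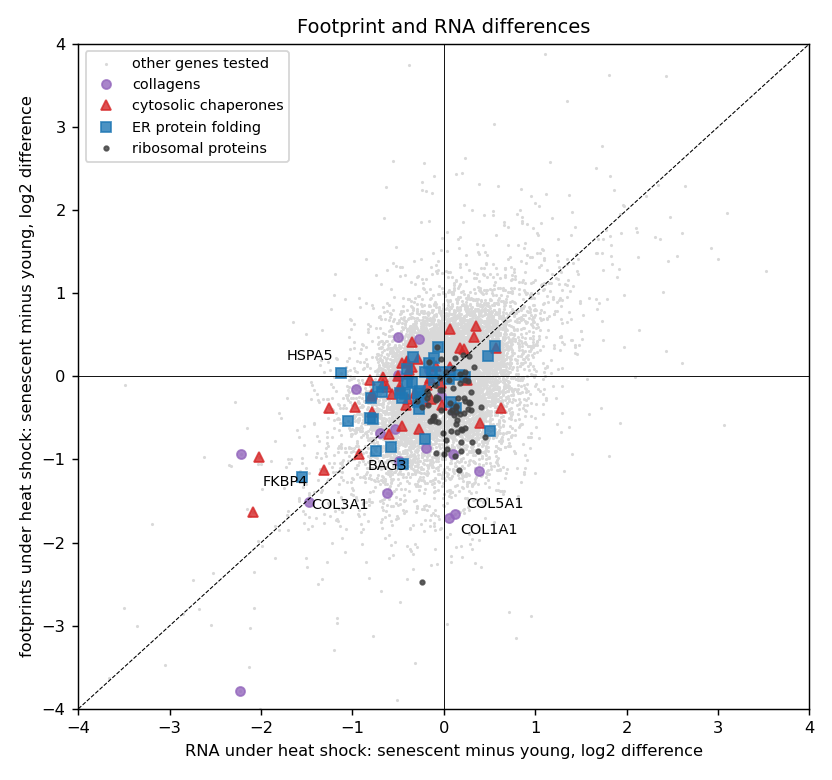
Difference in footprints (vertical) against difference in RNA (horizontal) under heat shock, both senescent minus young in log2, for genes tested in both assays. Coloured points are the collagens, cytosolic chaperones, endoplasmic reticulum folding genes and ribosomal proteins, and the dashed line marks equal differences; COL1A1 and COL5A1 lie below the line near 0 in RNA, FKBP4 and BAG3 close to the line, and HSPA5 near 0 in footprints and left of 0 in RNA.

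The chaperones and degradation factors of the endoplasmic reticulum, where secreted proteins fold, were 27 of 40 below 0 with a median of -0.18. Of the 40, edgeR called 0 and DESeq2 called HERPUD1 (1.28% of all genes it tested were called in either direction). Without young replicate 1 the median was -0.0041, and those of the lumen chaperones and of the disulfide isomerases turned to 0.13 and 0.088. At rest the same list had a median of 0.19, and the heat-shock difference minus the rest difference was below 0 for 33 of 40. HSPA5, the lumenal HSP70 BiP and a classic readout of the unfolded protein response, gave 6117 and 5643 CPM in senescent and 6541 and 4863 CPM in young libraries. Its footprints overlapped (0.044 ± 0.20), while its RNA differed by -1.12 ± 0.31 (edgeR adjusted p = 0.28) and footprints over RNA by 1.17 ± 0.38 (edgeR adjusted p = 0.73). HERPUD1, which helps clear misfolded proteins from the reticulum, gave 253 and 112 CPM against 459 and 390.0 CPM (-1.21 ± 0.35, RNA -1.56 ± 0.44). DNAJC10, a disulfide reductase that assists BiP, gave 55.1 and 29.3 CPM against 89.1 and 87.2 CPM (-1.05 ± 0.30). XBP1, whose spliced form drives the response, differed by -0.25 ± 0.20.

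The integrated stress response lowers general initiation through phosphorylation of eIF2 alpha and favours a few mRNAs with upstream reading frames. Its members were 18 of 28 below 0 with a median of -0.14. That median was -0.21 without senescent replicate 2, -0.064 without young replicate 1 and -0.23 without young replicate 2. Of the 28, edgeR called 0 and DESeq2 called PPP1R15A (1.28% of all genes it tested were called in either direction). PPP1R15A, the regulatory subunit GADD34 that brings a phosphatase to eIF2 alpha, gave 429 and 712 CPM in senescent and 272 and 103 CPM in young libraries. The groups did not overlap, though the young replicates differed by more than 2-fold (1.60 ± 0.41, edgeR adjusted p = 0.23, 0.39 ± 0.42 at rest). ATF4, the transcription factor made under eIF2 alpha phosphorylation, gave 265 and 417 CPM against 213 and 257 CPM (0.54 ± 0.30), and its target DDIT3 differed by -0.26 ± 0.35. The amino acid supply genes, which ATF4 controls, had a median of -0.31 over 17 members, with 11 below 0, and this median was -0.14 without senescent replicate 1, -0.079 without young replicate 1 and -0.56 without young replicate 2.

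Ribosomal proteins and elongation factors are encoded by mRNAs that begin with a terminal oligopyrimidine (TOP) motif, whose translation is tuned by mTOR and LARP1. Of 76 ribosomal protein genes tested, 65 were below 0 in senescent cells under heat, 31 were lower without overlap (20.1% of all genes) and 2 higher without overlap (20.4% of all genes), and 0 were called by edgeR or by DESeq2. Their median was -0.36 in footprints, -0.019 at rest and 0.11 in RNA, and over all 18 alternatives the footprint median stayed between -0.56 (without senescent replicate 1) and -0.28 (without senescent replicate 2). Footprints over RNA were below 0 for 68 of the 76. The large subunit (-0.34) and the small subunit (-0.36) had similar medians. By library, their mean log2 CPM was 8.55 and 8.29 in senescent and 8.81 and 8.79 in young heat-shocked cells. All 4 heat-shocked libraries lay below the 4 resting ones, and the 2 senescent libraries lay below the 2 young ones. RPL4 gave 1138 and 845 CPM against 1514 and 1241 CPM (-0.47 ± 0.20), RPS2 360.3 and 187 CPM against 521 and 498 CPM (-0.89 ± 0.28) and RPL37A 556 and 389 CPM against 1340.0 and 717 CPM (-1.12 ± 0.34). Many ribosomal proteins have processed pseudogenes, so single members are uncertain.

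The 12 elongation factors and other TOP mRNAs were all below 0, with a median of -0.54, -0.012 at rest and 0.043 in RNA, and 5 were lower without overlap (20.1% of all genes). Of the 12, 4 had an unadjusted p under 0.05 (7.18% of all genes did in this direction), and 0 were called by edgeR or by DESeq2. EEF1A1, which brings aminoacyl-tRNA to the ribosome, gave 10259.5 and 5229 CPM against 14028 and 11759 CPM (-0.74 ± 0.30), and EEF2, the translocation factor, 1667 and 895 CPM against 2241 and 1731 CPM (-0.63 ± 0.28). PABPC1, the cytoplasmic poly(A)-binding protein, gave 13.8 and 4.67 CPM in senescent and 23.3 and 18.7 CPM in young heat-shocked libraries, against 288 to 394 CPM in all resting libraries. PABPC1 footprints were thus scarce after heat in both states and lowest in senescent replicate 2 (-1.14 ± 0.41, edgeR adjusted p = 0.33). Senescent replicate 2 was also the lowest of the 4 libraries for EEF1A1, EEF2 and the mean of the list, so that the median was -0.27 without it, -1.0 without senescent replicate 1, -0.35 without young replicate 1 and -0.85 without young replicate 2. The 26 initiation factors had a median of 0.071, whose sign turned with library size scaling, with TPM and without young replicate 2 and which was 0.036 without senescent replicate 1 and 0.15 without young replicate 1.

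**Figure D4:**
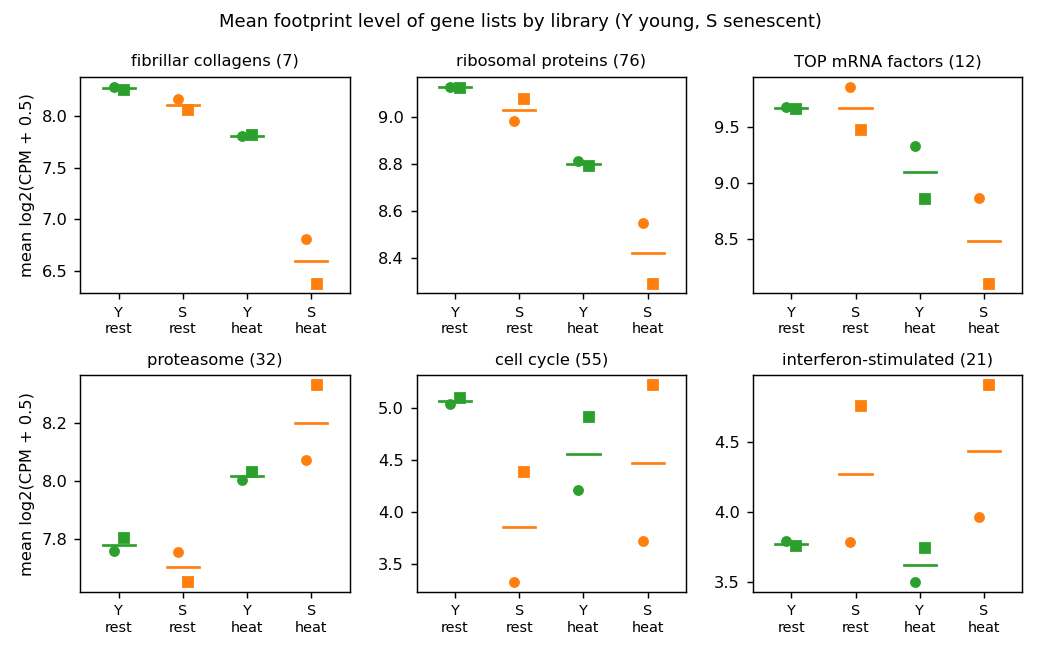
Mean footprint level of 6 gene lists, as mean log2(CPM + 0.5) over the members tested, in each of the 8 footprint libraries; circles are replicate 1, squares replicate 2 and bars group means. Fibrillar collagens and ribosomal proteins are lowest in the 2 heat-shocked senescent libraries, the proteasome is highest there, and for cell cycle and interferon-stimulated genes replicate 2 of the senescent cells stands well above replicate 1.

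Proteasome and chaperonin genes had medians slightly above 0 under heat that moved when single libraries were left out, and none was called by edgeR or by DESeq2. The proteasome, which degrades ubiquitinated proteins, had 29 of 32 subunits above 0 and a median of 0.20, against -0.10 at rest and -0.20 in RNA. In all 10 subunits were higher without overlap (20.4% of all genes) and none had an unadjusted p under 0.05. PSMD2, a scaffold of the regulatory particle, gave 1091 and 1249.9 CPM against 1017 and 770.5 CPM (0.39 ± 0.19). Chaperonin TRiC and its partner prefoldin, which fold actin and tubulin, had 12 of 14 members above 0 and a median of 0.18, with RNA at -0.29. Without young replicate 2 that median was 0.024 and the median of TRiC alone was -0.076, and without young replicate 1 the median of both was 0.35. Without senescent replicate 2 the proteasome median was 0.043, with the 19S regulator at -0.0039, and without senescent replicate 1 it was 0.30. It was 0.018 on the TPM scale, where the median of all genes was -0.13.

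Arrest and p53 genes, which check the labelled state, leaned toward higher values in senescent cells. CDKN1A, the p53 target p21 that inhibits cyclin-dependent kinases, gave 353 and 678 CPM in senescent and 223 and 235 CPM in young heat-shocked libraries. Both senescent values exceeded both young ones (1.17 ± 0.29, edgeR adjusted p = 0.23), at rest the difference was 0.65 ± 0.29 and in RNA 1.25 ± 0.29. CDKN2A, which encodes p16 and ARF, overlapped at 14.1 and 27.4 CPM against 18.5 and 26.7 CPM (-0.14 ± 0.35), and the file does not separate its 2 products. The D-type cyclins CCND1 and CCND2, partners of CDK4 and CDK6, gave 2108 and 2251 CPM against 1413 and 1272 CPM (0.70 ± 0.17) and 50.4 and 41.2 CPM against 16.7 and 6.85 CPM (1.97 ± 0.39). CCND2 had a wider gap at rest (3.12 ± 0.41). Of 31 arrest and p53 genes 22 were above 0 and 14 higher without overlap (20.4% of all genes tested), with a median of 0.23 under heat and 0.23 at rest. The heat median was 0.19 without young replicate 1 and 0.42 without young replicate 2. It was 0.036 on the TPM scale, where the median of all genes was also lower. Here edgeR called 0, and DESeq2 called CDKN1A, CCND1 and CCND2 (1.28% of all genes it tested were called in either direction). GADD45B and AEN, both p53-responsive, differed by 0.92 ± 0.25 and 1.10 ± 0.32.

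Under heat the mean level of the cell cycle genes differed more between the replicates of each state than between the states. Their mean log2 CPM was 3.72 and 5.22 in senescent and 4.22 and 4.91 in young heat-shocked libraries. Senescent replicate 1 was the lowest and senescent replicate 2 the highest of the 4. MKI67, the proliferation marker Ki-67, gave 17.2 and 75.2 CPM against 31.0 and 44.4 CPM (0.28 ± 0.63). The median over 55 genes was 0.10 under heat and -1.14 at rest; without senescent replicate 2 the heat median was -1.0, without senescent replicate 1 it was 0.60, and it was below 0 with library size scaling and with TPM, -0.27 without young replicate 1 and 0.47 without young replicate 2. In resting cells senescent replicate 2 (4.39) also exceeded senescent replicate 1 (3.33), and both lay below young cells (5.03 and 5.09). The heat difference minus the rest difference was above 0 for 52 of 55, and 7 had an unadjusted p under 0.05 there (1.85% of all genes did in this direction). These list counts were not repeated without senescent heat-shocked replicate 2, where the heat median of -1.0 lay near the resting median of -1.14. LMNB1, the lamin that is lost in senescence, gave 14.0 and 37.2 CPM against 40.4 and 36.5 CPM (-0.61 ± 0.50) and was below young cells in both senescent libraries at rest (-1.54 ± 0.51).

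The secretory genes of senescent cells were not uniformly higher. Of 48 secretome genes listed 34 were tested, among them 9 of 22 cytokines and chemokines, and the others did not pass the count filter. Of the 34, 20 were above 0. Here edgeR called 0, and DESeq2 called INHBA lower and SERPINB2 higher (1.28% of all genes it tested were called in either direction). The median of 0.10 turned below 0 on the TPM scale and without senescent replicate 2, and without the other heat-shocked libraries it lay between 0.054 and 0.21. IL6, its best known cytokine, was near the filter at 2.98 and 1.91 CPM against 3.12 and 6.85 CPM (-1.01 ± 0.58). INHBA, the activin subunit, stood lower at 121 and 127 CPM against 270.3 and 263 CPM (-1.11 ± 0.20, -0.90 ± 0.20 at rest). GDF15, a stress cytokine, gave 14.8 and 67.3 CPM against 8.33 and 16.5 CPM, where senescent replicate 1 lay within the young range (1.70 ± 0.63). IGFBP7 and the plasminogen activator PLAT stood higher by 0.65 ± 0.21 and 0.95 ± 0.29, and at rest by 1.07 ± 0.21 and 1.33 ± 0.29.

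Of 30 interferon-stimulated genes listed, the antiviral genes that interferons switch on, 21 passed the count filter and were tested. All 21 were above 0, 12 without overlap (20.4% of all genes), with a median of 0.60 under heat, 0.40 at rest and 0.49 in RNA. Here edgeR called 0, and DESeq2 called IFI6 and DDX58 (1.28% of all genes it tested were called in either direction). ISG15, a ubiquitin-like modifier, gave 48.0 and 88.5 CPM against 33.5 and 30.4 CPM (1.09 ± 0.35), and IFI6, which protects mitochondria and blocks virus replication, gave 20.7 and 74.5 CPM against 12.9 and 10.00 CPM (2.05 ± 0.65). DDX58, the RNA sensor RIG-I, had closely similar replicates, at 38.3 and 43.1 CPM against 19.6 and 16.1 CPM (1.19 ± 0.23, edgeR adjusted p = 0.17). Senescent replicate 2 carried the highest list level (4.90 against 3.96 in replicate 1), and the median was 0.15 without it and 1.08 without replicate 1. The AP-1 factors, early transcription factors of the stress response, had a median of 0.85 over 9 genes, which was 0.13 without senescent replicate 2 and 0.31 without young replicate 1. Of the 9, 6 were above 0 and 3 below, down to -1.06, and 0 were called by edgeR or by DESeq2. The EGR, IER and KLF genes of the same immediate early list had a median of -0.081, with 7 of 13 below 0. Over all 27 immediate early genes the median was 0.30, and -0.12 without senescent replicate 2. JUN gave 50.7 and 94.7 CPM against 33.9 and 46.3 CPM (0.85 ± 0.31) and FOS 17.3 and 100.4 CPM against 9.16 and 18.9 CPM (2.05 ± 0.75).

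**Figure D5:**
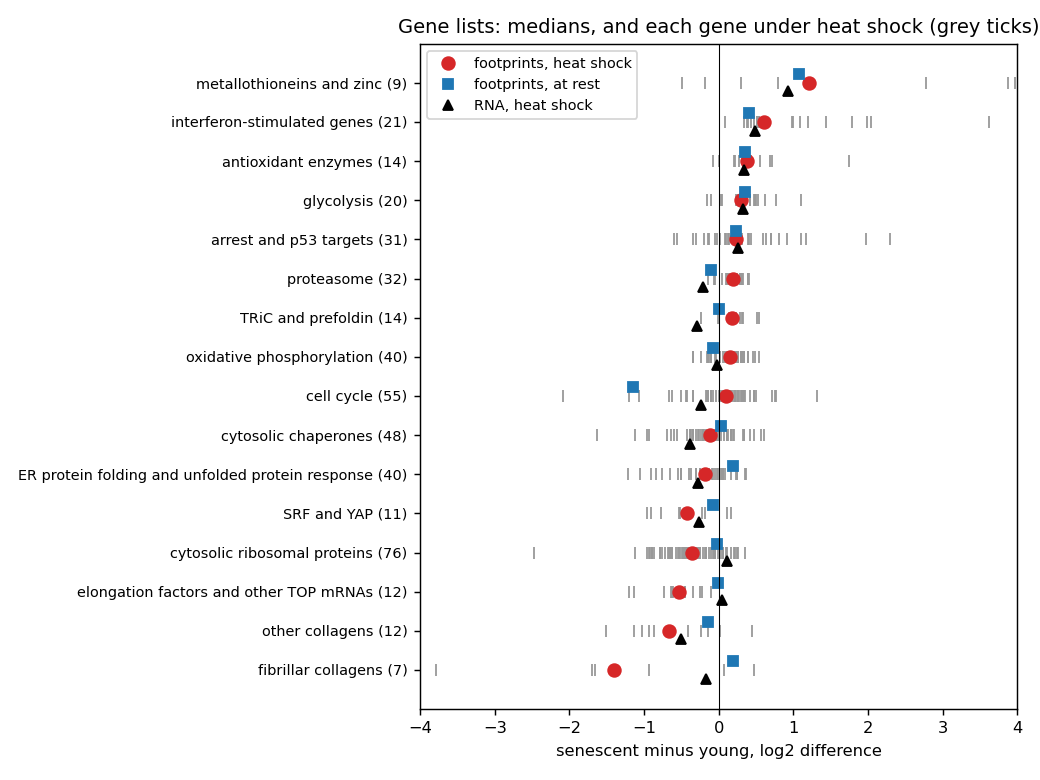
Median difference (senescent minus young, log2) of 16 gene lists or their subgroups in footprints under heat shock (red circles), in resting footprints (blue squares) and in RNA under heat shock (black triangles), with each member's footprint difference under heat shock as a grey tick and the number of genes in brackets. Fibrillar and other collagens, TOP mRNAs, ribosomal proteins and SRF and YAP genes have footprint medians under heat that are below 0 and below both others. The cell cycle list has a resting median of -1.14 beside a heat median of 0.10.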

How the data were processed

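Footprint and RNA libraries of WI-38 cells were analysed from gene tables with 8 libraries each, 2 per group in 4 groups per assay. The deposited values are expected counts per gene, made by the authors, and all were whole numbers, so that rounding changed none. Levels in TPM were also deposited by the authors and used for marker sums and 1 alternative. STAR, Bowtie2, RSEM and hg19 are named in the submitters' processing notes, with versions not given in the sources used here. Heat-shocked footprint libraries held 5356955 to 8126227 counts, and the floor of 3 counts per library covers counting error only. The heat shock temperature label has lost its degree sign and was read as 44 °C. A total of 2 rows had no gene symbol.

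Differences were fitted with edgeR 4.0.16 in R 4.3.3 (filterByExpr, TMM scaling, glmQLFit and glmQLFTest with 4 group means over all 8 libraries of an assay, 4 residual degrees of freedom), with Benjamini-Hochberg adjustment over all genes tested and a threshold of 0.05. Footprints over RNA came from 1 fit of all 16 libraries as an interaction of assay and state. Standard errors were computed from the difference and its F value and are approximate. The script was tested on simulated data. The resting young footprint libraries differed by more than sampling noise and were kept as 2 samples. Alternatives were other scalings, no filter, removal of a trend with GC content, DESeq2 1.42.0, limma 3.58.1 on log2(TPM + 1), a replicate block, only the 4 libraries compared, and each library left out.

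Members and gene lists were chosen with earlier results of these data known. By rule the text names the 10 genes with the smallest p in each direction with at least 10 CPM in a heat-shocked group, the 2 members with most counts of each list where none was called, and a panel of 24 stress and senescence genes. Members of lists named beyond these, such as FKBP4, COL5A2, EEF2, RPS2, DDX58 and LOX, were chosen after their values were seen.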

Additional observations from a re-analysis of the deposited data

How the results depend on the processing

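Counts of called genes and many list medians moved with the processing. The heat-shock median of 11 of 24 gene lists turned sign in at least 1 alternative, and of 31 of 57 subgroups. In footprints under heat shock, where 1 gene was called, DESeq2 called 128, no filter on low counts 112, removal of the GC trend 5, and relative log expression scaling, limma on log2(TPM + 1), only the 4 libraries compared and the resting young libraries as 1 sample 0 each, with 1436, 1482, 789 and 895 genes at an unadjusted p under 0.05. Leaving out 1 library gave 0 to 494. For resting footprints, with 0 called, no filter gave 118, DESeq2 111, only the 4 libraries 1, and leaving out 1 library 0 to 6. The heat difference minus the rest difference, with 0 called, gave 5 with no filter, 10 with DESeq2 and 0 in each fit without 1 library. RNA under heat shock, with 0 called, gave 110 with no filter, 24 after removal of the GC trend, 245 with DESeq2 and 6 with limma on log2(TPM + 1). Footprints over RNA, with 0 called, gave 22 with DESeq2 and 0 to 6 with 1 library left out. The cause of these shifts was not tested.

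Replicate numbers are shared by all groups, and what they stand for is not stated. Differences between replicates 1 and 2 correlated between groups at -0.038 to 0.33 in footprints and 0.48 to 0.66 in RNA, and with 2 numbers the pairing is not established. With the replicate number as a block, 18 genes were called in footprints under heat shock (8 higher, 10 lower), 27 at rest, 0 in the difference between heat and rest, 1811 in RNA under heat shock (1070 higher, 741 lower) and 59 in footprints over RNA. With the block and the GC trend removed together these were 23, 45, 0, 621 and 0.

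Differences near 0 changed sign. Without 1 library CDKN2A ranged over -0.72 to 0.24, COL11A1 -0.98 to 0.61, FN1 -0.22 to 0.18, HSP90AA1 -0.62 to 0.034, HSPA1A -0.32 to 0.19, HSPA1B -0.49 to 0.43, HSPA5 -0.17 to 0.23, HSPA6 -0.35 to 0.57, HSPA8 -0.032 to 0.33, HSPB1 -0.88 to 0.24, MKI67 -1.17 to 0.96 and SLC30A1 -1.62 to 0.056. With library size scaling FN1 was -0.045, HSPA1B -0.023 and HSPA5 -0.026. On log2(TPM + 1), COL11A1 was -0.14, FN1 -0.30, HSPA1B -0.15, HSPA5 -0.094, HSPA6 -0.029, HSPA8 -0.0010 and MKI67 -0.088, where the median of all genes was -0.13. FN1 was -0.0016 with no filter and -0.022 after removal of the GC trend. With the replicate block COL11A1 was -0.070 and HSPA1B -0.028, and with the GC trend also removed COL11A1 was -0.10, FN1 -0.038 and HSPA1B -0.055. With 2 libraries per group and 4 residual degrees of freedom the precision was limited.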

Other observations

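Metabolic and cytoskeletal genes gave further patterns, none with a gene called by edgeR under heat. Among them DESeq2 called CNN1 higher and YAP1 and SCD lower (1.28% of all genes it tested were called in either direction). Of the 14 antioxidant enzymes 13 were above 0 and 9 were higher without overlap of the groups (20.4% of all genes), with a median of 0.39 under heat (0.22 without senescent replicate 2) and 0.35 at rest. PRDX2, a peroxiredoxin that reduces hydrogen peroxide, gave 349 and 390.0 CPM in senescent and 220.3 and 230.3 CPM in young heat-shocked libraries (0.71 ± 0.18), and PRDX6 1213 and 1146 CPM against 921 and 825 CPM (0.44 ± 0.16). The 17 NRF2 targets had a median of 0.036, which turned below 0 without senescent replicate 2 or young replicate 1, and among them FTL, the ferritin light chain, differed by -0.51 ± 0.23 in footprints, 0.82 ± 0.16 in RNA and -1.34 ± 0.29 in footprints over RNA (edgeR adjusted p = 0.54). Glycolysis enzymes were above 0 in 18 of 20, with medians of 0.30 under heat, 0.35 at rest and 0.32 in RNA, where the heat median was 0.081 without senescent replicate 2.

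Replication-dependent histone genes had a median of 0.10 over 20 genes under heat, -1.28 without senescent replicate 2 and 0.78 without senescent replicate 1, and -0.53 and 1.03 without young replicates 1 and 2. The nuclear lamina genes had a median of -0.42 over 7. The SRF and YAP list holds the regulator YAP1 beside target genes, which answer to actin tension. Of its 11 genes 9 were below 0 and 7 were lower without overlap (20.1% of all genes), with a median of -0.43 (-0.24 without young replicate 2), against -0.075 at rest. Lysosomal enzymes (0.18 over 24), nuclear-encoded oxidative phosphorylation subunits (0.16 over 40), ubiquitin and autophagy genes (0.15 over 24), mitochondrial chaperones and proteases (0.13 over 15), cholesterol synthesis (-0.020 over 25) and SR splicing proteins with their kinases (0.086 over 18) had medians within 0.20 of 0, in log2. These medians moved by over 1.5 times when single heat-shocked libraries were left out. The mitochondrial one was -0.14 without young replicate 2, the cholesterol one 0.011 without senescent replicate 1 and -0.32 without young replicate 1, and the SR one -0.13 without senescent replicate 2. Without senescent replicate 2 the lysosomal median was 0.0064, the oxidative phosphorylation median 0.021 and the ubiquitin and autophagy median 0.064. The 2 replicates of resting young footprints had a chi-square of 1.72 per gene between their counts, against 16.5 to 36.5 for the other footprint pairs.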
